A study of Mus musculus with 6 samples.

Results

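The collagen chain genes were followed in adrenal medulla after cardiac pressure overload. They were taken from the array's gene annotation as every single symbol written Col, a number, a and a number, which gave 42 genes read by 82 probe sets among 18193 named genes and 45037 probe sets. A probe set is a group of short probes that together read 1 transcript, mostly near its 3′ end. Of the 42 genes, 26 passed the filter on low values with at least 1 probe set, and 35 of the 82 probe sets were tested.

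The arrays came from male C57/Bl6 mice of the same strain in both groups, whose age is not given in the sources used here. In the 3 TAC mice the transverse aorta was constricted, which loads the heart with pressure, and the 3 sham mice had a sham operation. Tissue was taken 8 weeks later from 12 µm cryosections by microdissection, and the RNA of both medullae of 1 animal was put on 1 array, so an array stands for an animal. All 13 chromaffin cell markers on the array passed the filter, with Chga, which encodes the granule protein chromogranin A, at 14.18 ± 0.21 (SD, n = 3) in sham and 14.47 ± 0.41 in TAC on the log2 intensity scale.

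Collagens are trimers of chains wound into a triple helix, and the chains of a type are the products of separate genes. Fibrillar collagens (types I, III, V, XI and their relatives) build the banded fibrils of connective tissue. Type IV forms the sheet-like network of basement membranes under endothelium and around nerve and gland cells, and type VI forms beaded filaments between fibrils and cells. In the adrenal gland they make up the capsule, the fine stroma between cell cords and the walls of the sinusoids, and most chains are made by fibroblasts, mural cells and endothelium.

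No collagen chain gene differed between TAC and sham past the threshold, and the sizes were spread to both sides. The readings that lay furthest below sham were those of the fibrillar genes Col3a1 and Col1a2. The one furthest above was that of the fibrillar gene Col27a1, whose groups overlapped. Higher readings without overlap included the fibrillar gene Col5a3, which was read near the filter level, and the beaded-filament gene Col6a2. Differences are TAC minus sham on the log2 intensity scale with the standard error (SE) of limma, and adjusted p-values are limma's after Benjamini-Hochberg adjustment over 18188 probe sets with a threshold of 0.05. Of the 35 collagen probe sets 0 passed, as did 0% of all tested, and the smallest adjusted p was 0.551 among the collagens and 0.384 overall. At an unadjusted p under 0.05 there were 4 of 35, or 11.4%, against 6.94% of all tested probe sets, and leaving out sham 3 or TAC 3 left 2 in each case, while the count over all tested probe sets went from 1263 to 768 and 703. These 4 were a probe set each of Col3a1 and Col1a2, lower after TAC (2.29% of all tested were lower in this way), and of Col6a2 and Col18a1, higher after TAC (4.65% of all tested). By gene, 12 of 26 were lower and 14 higher with a median of 0.01, while 41.3% of all 10181 tested genes were lower and their median was 0.09.

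Sequence in front of the start is shown for 3 of the fibrillar genes, the pair with the largest lower readings and the one that lay higher on every TAC array. Each line holds the 250 bases before the start of the RefSeq transcript in build GRCm38.p6, read 5′ to 3′ on the gene's strand, with matches on either strand in capitals to the CCAAT box, to the GC box GGGCGG, or to the TATA box TATAAA, none of which overlap here.
Col1a2, chr6:4505368-4505617, plus strand: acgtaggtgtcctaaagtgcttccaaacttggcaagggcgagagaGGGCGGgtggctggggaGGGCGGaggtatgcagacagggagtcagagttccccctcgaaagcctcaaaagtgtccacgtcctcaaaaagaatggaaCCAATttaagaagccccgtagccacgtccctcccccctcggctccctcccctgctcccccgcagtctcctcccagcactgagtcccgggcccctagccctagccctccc
Col3a1, chr1:45311288-45311537, plus strand: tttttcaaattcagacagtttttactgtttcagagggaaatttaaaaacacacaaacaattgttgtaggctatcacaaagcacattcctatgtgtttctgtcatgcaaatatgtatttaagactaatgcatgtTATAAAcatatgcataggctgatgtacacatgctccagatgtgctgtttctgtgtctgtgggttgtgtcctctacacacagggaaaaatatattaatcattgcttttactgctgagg
Col5a3, chr9:20815068-20815317, minus strand: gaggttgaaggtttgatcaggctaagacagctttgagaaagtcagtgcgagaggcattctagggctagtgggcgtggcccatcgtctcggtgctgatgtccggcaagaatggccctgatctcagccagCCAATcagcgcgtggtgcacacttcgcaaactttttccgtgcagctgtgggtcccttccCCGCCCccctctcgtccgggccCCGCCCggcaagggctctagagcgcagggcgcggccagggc
The windows of Col1a2 and Col5a3 are alike in their motifs, with 1 CCAAT and 2 GGGCGG each, while that of Col3a1 holds neither and has 1 TATAAA. The CCAAT box is a binding sequence of nuclear factor Y and the GC box one of Sp1. In Col1a2 the CCAAT lies from 109 to 105 bases before the start, and in Col5a3 from 122 to 118. A RefSeq window was found for 33 of the 42 genes, in 36 windows, of which 36.1% held CCAAT, 58.3% GGGCGG and 13.9% TATAAA. Over all 32851 windows of this length the shares were 33.8%, 32.7% and 12.4%, so GGGCGG was found more often in front of collagen genes than in front of genes at large, as a description with no test. The genes with the largest lower readings did not share a match of these kinds, and a match is a description and not a site.

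Among the fibrillar collagens, 8 of 11 genes were tested, 4 lower and 4 higher, with a median of 0.08. Col3a1, whose product forms type III fibrils in vessel walls and reticular fibres, read 9.45, 10.17 and 10.29 on sham arrays 1 to 3 and 7.34, 8.76 and 8.81 on TAC arrays 1 to 3. Every TAC array lay below every sham array, and the array numbered 1 was the lowest of each group. The difference was -1.67 ± 0.48, a 3.18-fold lower intensity, with a 95% interval from -2.85 to -0.49 and an adjusted p of 0.551. Its second tested probe set read 4.29, 4.76 and 4.96 in sham and 4.31, 4.47 and 3.74 in TAC, where the groups overlapped and the difference was -0.49 ± 0.31 (adjusted p = 0.895). With both averaged, the Col3a1 difference was -1.08, and without TAC 1 that of the brighter one was -1.19.

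Col1a2, the α2 chain of type I collagen, measured 7.45, 7.83 and 8.27 in sham and 5.64, 6.83 and 6.90 in TAC on its brightest probe set. Here too no TAC array reached the lowest sham array, and TAC 1 was the lowest of all. The difference was -1.40 ± 0.43, or 2.63-fold lower, with an interval from -2.44 to -0.35 (adjusted p = 0.560). A second probe set of Col1a2 gave 6.68, 7.75 and 8.33 in sham and 5.94, 6.88 and 7.27 in TAC, with overlapping groups and a difference of -0.89 ± 0.54 (adjusted p = 0.886). Its remaining probe set stayed between 2.15 and 3.08 on all arrays, below the filter, and gives no comparison.

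The α1 chain of type I collagen, encoded by Col1a1, lay closer between the groups. Col1a1 read 5.77, 5.92 and 5.69 in sham and 6.12, 5.10 and 5.36 in TAC, so TAC 1 was the highest and TAC 2 the lowest array. The difference was -0.27 ± 0.32 with an interval from -1.05 to 0.52 (adjusted p = 0.980), and it was -0.56 without TAC 1 and -0.05 without TAC 2. The other Col1a1 probe set lay between 2.73 and 3.08, so the gene was read by 1 of its 2 probe sets. In bulk tissue fewer cells of a type and less RNA per cell cannot be told apart, which holds for all values given here.

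Type V collagen starts fibrils and limits their width, and its 3 genes were each measured, with readings to both sides. Col5a3 gave 4.77, 4.59 and 4.72 in sham and 5.99, 4.95 and 5.38 in TAC. All TAC arrays were above all sham arrays, the SD over the sham arrays was 0.10, and TAC 1 was highest. The difference was 0.75 ± 0.32, or 1.68-fold higher, with an interval from -0.03 to 1.52 (adjusted p = 0.730), and it was 0.47 without TAC 1. Col5a2 read 6.80, 7.97 and 7.95 in sham and 6.40, 7.36 and 7.34 in TAC on 1 probe set, a difference of -0.54 ± 0.45 (adjusted p = 0.946). On the other it read 5.70, 6.69 and 6.05 against 6.62, 7.05 and 6.70, a difference of 0.64 ± 0.33 (adjusted p = 0.812). The Col5a2 probe sets therefore differ in sign, the groups overlapped on both, and no direction can be given for this gene. Col5a1 was likewise read at 0.43 ± 0.29 by its brighter probe set (5.09, 5.80 and 5.78 in sham, 5.76, 5.98 and 6.23 in TAC) and at -0.19 ± 0.22 by the other. On that other probe set the TAC arrays, at 5.06, 5.16 and 5.09, were all below the sham arrays, at 5.18, 5.17 and 5.52, by a gap at the second decimal.

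Col11a1 and Col27a1 encode fibrillar chains best known from cartilage. Col11a1 read 8.84, 8.6 and 8.34 in sham and 9.70, 8.94 and 8.67 in TAC (difference 0.51 ± 0.34, adjusted p = 0.906). The array numbered 1 was the highest of each group, and the groups overlapped. The other Col11a1 probe set was not tested, as it reached the filter level on sham 1 alone. It read 4.82, 3.31 and 3.42 in sham and 3.82, 2.99 and 2.83 in TAC. Col27a1 read 8.89, 7.24 and 7.86 in sham and 9.71, 8.11 and 8.93 in TAC (0.92 ± 0.57, adjusted p = 0.888), and on a second probe set 10.04, 6.82 and 7.45 against 9.18, 7.16 and 8.80 (0.28 ± 0.96, adjusted p = 0.997). Again arrays numbered 1 were highest in both groups on both probe sets, and their distance from the other arrays was larger than the distance between the groups. Col2a1, Col11a2 and Col24a1, the other fibrillar genes, stayed below 4 on every array, at most at 2.22, 1.99 and 3.47.

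**Figure D1:**
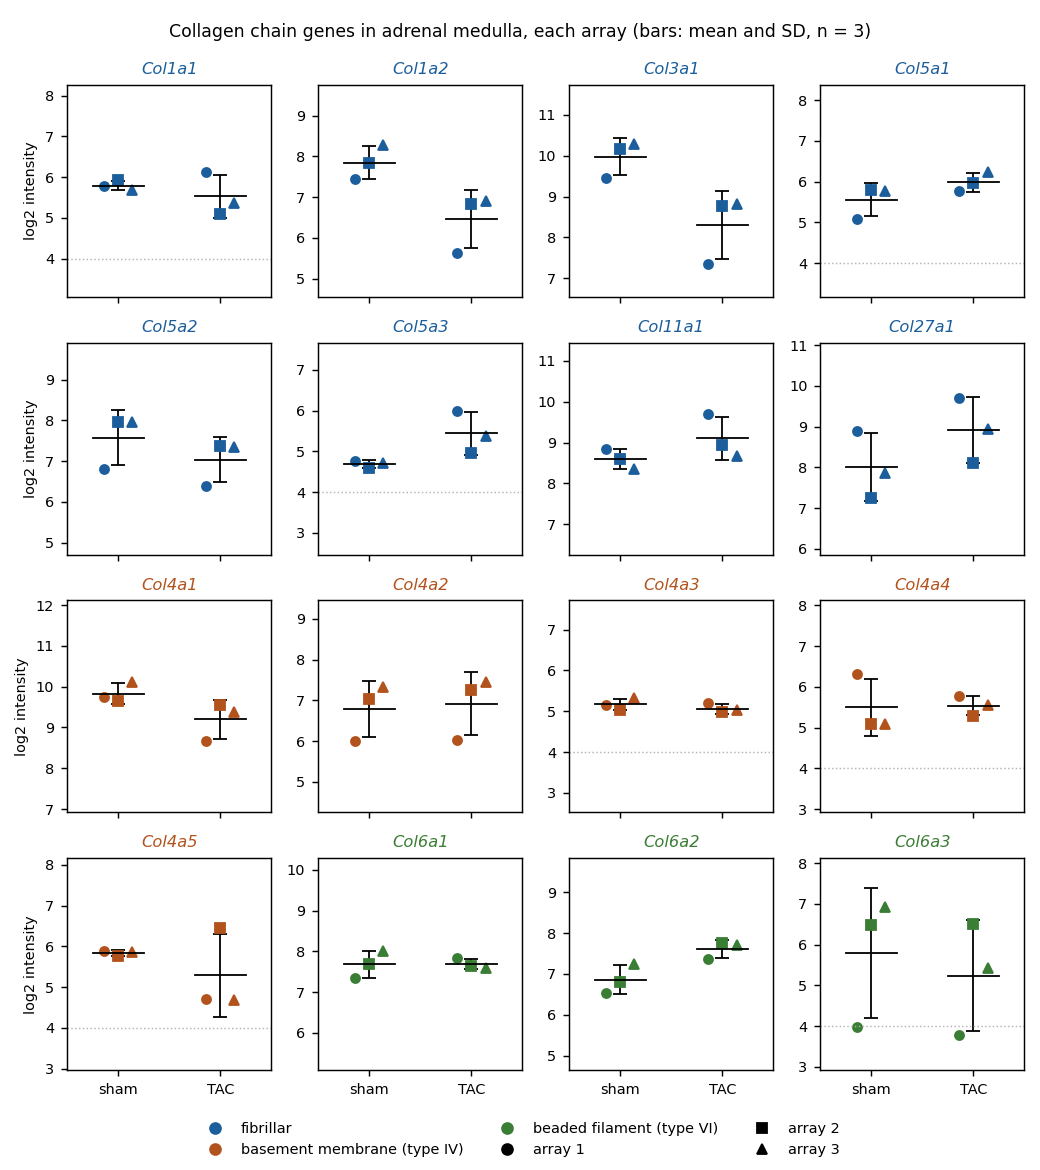
Log2 intensity of 8 fibrillar, 5 basement membrane and 3 beaded-filament genes on each array, with the probe set of the highest mean for each gene. Points are arrays (circle 1, square 2, triangle 3), horizontal bars group means and vertical bars SD, n = 3, all panels span the same range, and the dotted line is the filter level of 4. Only in the panels of Col1a2, Col3a1, Col4a1, Col5a3 and Col6a2 do the TAC and sham points not overlap.

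In the basement membrane group, 5 of 6 genes were tested, 3 lower and 2 higher, with a median of -0.11. Col4a1 and Col4a2 encode the chains of the common type IV network, lie head to head with no protein-coding gene between them, and their RefSeq windows share 78 bases. Col4a1 read 9.74, 9.64 and 10.12 in sham and 8.66, 9.56 and 9.37 in TAC (difference -0.64 ± 0.32, adjusted p = 0.807). All TAC arrays were below the sham arrays, TAC 2 only just, and the difference was -0.37 without TAC 1. Its second probe set, at 7.32, 7.27 and 7.76 in sham and 7.01, 7.33 and 7.24 in TAC, gave -0.26 ± 0.25 with overlap (adjusted p = 0.965). Col4a2 read 6.01, 7.03 and 7.33 in sham and 6.03, 7.25 and 7.46 in TAC (0.13 ± 0.52, adjusted p = 0.998). The arrays of Col4a2 line up by number, with the arrays numbered 1 lowest in each group, and the groups cover nearly the same range.

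Col4a3, Col4a4 and Col4a5 encode the chains of the type IV network best known from the kidney glomerulus. Col4a3 hardly varied, at 5.15, 5.04 and 5.32 in sham and 5.20, 4.97 and 5.02 in TAC (-0.11 ± 0.22, with an interval from -0.64 to 0.42). Col4a4 read 6.31, 5.08 and 5.10 in sham and 5.77, 5.29 and 5.56 in TAC (0.04 ± 0.40), with arrays numbered 1 highest in both groups. A second probe set of Col4a4 gave the reverse order, at 3.22, 5.34 and 4.72 in sham and 3.80, 5.91 and 5.01 in TAC, with arrays numbered 1 lowest (0.48 ± 0.74). Col4a5 was even over the sham arrays, at 5.89, 5.76 and 5.86, and uneven over the TAC arrays, at 4.72, 6.45 and 4.69 (-0.55 ± 0.51). TAC 2 thus lay above every sham array of Col4a5 while TAC 1 and TAC 3 lay below them. Adjusted p-values of these 3 genes ran from 0.958 to 0.998. Col4a6, the neighbour of Col4a5, stayed below the filter with at most 3.82.

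Type VI collagen was the beaded-filament group, with 3 of 5 genes tested, which encode the chains of its common trimer. Col6a2 read 6.54, 6.80 and 7.24 in sham and 7.36, 7.77 and 7.72 in TAC, so every TAC array was above every sham array. The difference was 0.76 ± 0.28, or 1.69-fold higher, with an interval from 0.08 to 1.44 (adjusted p = 0.675). Its second probe set carries a suffix (x) that marks probes able to bind other transcripts, and read 5.74, 5.67 and 5.93 against 6.46, 5.98 and 5.63 (0.24 ± 0.28). Col6a2 averaged over both was 0.50 higher. Its partner and neighbour Col6a1 had nearly equal group means, at 7.35, 7.68 and 8.02 in sham and 7.83, 7.63 and 7.59 in TAC (0.00 ± 0.26, with an interval from -0.63 to 0.64). Col6a3 varied widely between arrays, at 3.98, 6.49 and 6.92 in sham and 3.79, 6.5 and 5.43 in TAC (difference -0.56, with an interval from -2.98 to 1.86 and an adjusted p of 0.985). The arrays numbered 1 lay below the filter level in both groups of Col6a3. Col6a4 and Col6a5 did not pass the filter, at most at 3.29 and 2.90.

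Of 20 genes of other collagen types 10 were tested, 4 lower and 6 higher, with a median of 0.11 and adjusted p-values of at least 0.696. Col18a1, a chain of the basement membrane zone whose end is released as endostatin, had 2 tested probe sets. The brighter read 5.55, 7.01 and 6.75 in sham and 5.74, 7.57 and 6.94 in TAC (0.31 ± 0.60). The other read 5.88, 5.93 and 5.91 in sham and 6.14, 6.82 and 7.04 in TAC, without overlap, and differed by 0.76 ± 0.30 (adjusted p = 0.696). Its suffix (s) marks a probe set that can read several transcripts, so this higher reading is not certain to be that of Col18a1 alone.

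Col7a1, the chain of anchoring fibrils, read 6.42, 5.72 and 5.47 in sham and 7.35, 5.87 and 6.63 in TAC (0.74 ± 0.46). Col13a1, a transmembrane collagen, read 6.23, 5.82 and 6.20 against 7.21, 5.90 and 6.39 (0.41 ± 0.38). Col16a1, a fibril-associated chain, read 9.17, 8.03 and 8.47 against 8.67, 7.15 and 8.80 (-0.36 ± 0.54). In these genes TAC 2 was the lowest TAC array, and the groups overlapped. Col14a1, which binds the surface of fibrils, read 5.95, 7.67 and 7.54 against 5.97, 7.70 and 8.11 (0.20 ± 0.72). Col8a1, a short chain made beneath endothelium, read 5.48, 7.93 and 7.56 against 5.51, 7.95 and 6.43 (-0.36 ± 0.87). Col14a1 and Col8a1 have their lowest array of each group at number 1. The remaining tested genes Col9a1, Col12a1, Col15a1 and Col20a1 had differences from -0.21 to 0.25, all with overlap. The 10 genes of other types below the filter were Col8a2, Col9a2, Col9a3, Col10a1, Col17a1, Col19a1, Col22a1, Col23a1, Col25a1 and Col26a1, and Col9a3 came closest, with 4.37 on its highest array.

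**Figure D2:**
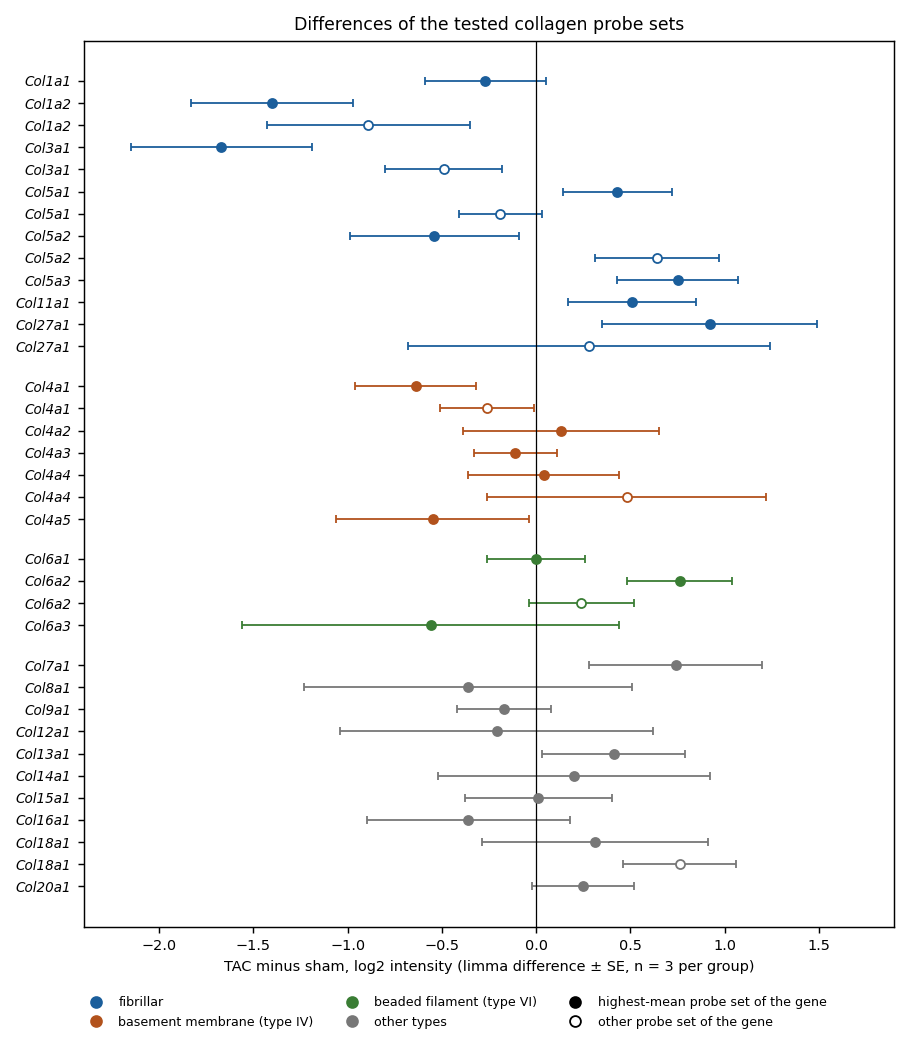
TAC minus sham on the log2 intensity scale with the SE of limma for the 35 tested collagen probe sets, grouped by collagen type. Filled points are the probe set with the highest mean of a gene and open points its other probe sets, and Col5a1 and Col5a2 have points on both sides of 0.

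Most collagen genes with several tested probe sets gave 1 direction. Of 9 such genes 7 had the same sign on both probe sets and 2, Col5a1 and Col5a2, had both signs. Even where signs were shared the sizes differed, from 0.04 to 0.48 for Col4a4 and from -1.67 to -0.49 for Col3a1. At 7 of the 35 probe sets the groups did not overlap. The lower ones were 4, of Col1a2, Col3a1, Col4a1 and Col5a1, or 11.4% against 4.01% of all tested probe sets. The higher ones were 3, of Col5a3, Col6a2 and Col18a1, or 8.57% against 9.01% of all tested.

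How a collagen probe set read on sham 1 went with how it read on TAC 1. At 15 of the 35 probe sets the array numbered 1 was the lowest of its group in both groups (42.9%), and at 9 it was the highest in both (25.7%). Over all tested probe sets these shares were 44.1% and 19.9%, so most tested probe sets of the array, and not collagens alone, were ordered in this way. Col6a3 was 2.73 lower on sham 1 than the mean of sham 2 and sham 3, and 2.17 lower on TAC 1 than the mean of TAC 2 and TAC 3. Col27a1 was at the other end, 1.33 and 1.19 higher. Across the 35 probe sets these distances correlated between the groups with a Pearson r of 0.82, against 0.76 across all tested probe sets, as a description over probe sets that share the same arrays. Sham 1 and TAC 1 also had the largest 3′ minus 5′ log2 reading of Gapdh in their group, at 5.15 and 4.71 against 2.88 to 3.98 on the other arrays, a measure that is larger where RNA is shortened.

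**Figure D3:**
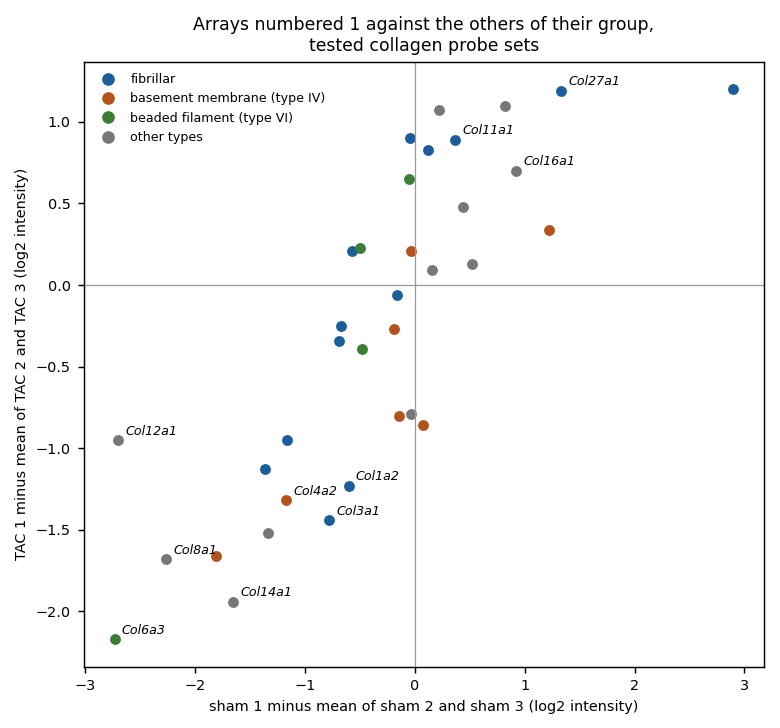
Each point is 1 of the 35 tested collagen probe sets, placed by its log2 intensity on sham 1 minus the mean of the other sham arrays (horizontal) and on TAC 1 minus the mean of the other TAC arrays (vertical). Labels name 10 genes at their brightest probe set, and the points run from Col6a3 at -2.73 and -2.17 to Col27a1 at 1.33 and 1.19 and its second probe set beyond.

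The collagen readings were repeated without these arrays, with the Gapdh measure in the fit, and within each set of 3 arrays made by that measure. Leaving out both arrays numbered 1 gave Col3a1 at -1.45, Col1a2 at -1.19 and Col6a2 at 0.73, with adjusted p-values from 0.250 to 0.317. On the arrays left the Gapdh measure was 3.08 and 2.88 in sham and 3.67 and 3.98 in TAC. Group and this measure therefore cannot be told apart there. With the Gapdh measure as a covariate Col3a1, Col1a2 and Col6a2 were at -1.45, -1.21 and 0.87, with adjusted p-values from 0.101 to 0.128. Lower p-values were seen over the whole array in both fits. With the covariate 17.1% of collagen probe sets had an unadjusted p under 0.05, against 21.1% of all tested. Without both arrays numbered 1 these shares were 17.1% and 15%. Col5a3 was 0.51 without both arrays and 0.67 with the covariate. Within the 3 arrays with the larger Gapdh measure (sham 1, TAC 1 and TAC 3) Col6a2 differed by 1.01 and Col5a3 by 0.91, and within the other 3 by 0.75 and 0.30. In these parts Col4a1 differed by -0.73 and -0.33, Col3a1 by -1.38 and -1.48, and Col1a2 by -1.18 and -1.22. Sham 1 is the only sham array of the first part and TAC 2 the only TAC array of the second. Each of these differences therefore rests on a single array of 1 group. With array weights, which count an array less where it stands apart, 13 of the 35 collagen probe sets passed the threshold, 7 lower and 6 higher. Over all tested probe sets 6698 of 18188 passed, a similar share. Those weights put 6.11 on TAC 3 against 0.396 on TAC 1 and 0.357 on TAC 2, so that result rests mostly on 1 TAC array.

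The chains of a mixed trimer are assembled in a fixed proportion, so the ratio of partner chains within each array was compared between the groups. The log2 ratio removes what an array does to both genes alike, and only its shift between arrays is read, since probe sets of different genes differ in brightness. In 7 pairs, 6 of partner chains and 1 of neighbours on the chromosome, exact 2-sided permutation tests over the arrays were run, which cannot go below p = 0.1 with 3 arrays per group. Col6a1 over Col6a2 was 0.81, 0.89 and 0.78 in sham and 0.48, -0.14 and -0.14 in TAC, a shift of -0.76. The SD over the sham arrays was 0.06 and every TAC array was below them (exact p = 0.1, adjusted p = 0.233 over the pairs). Averaging the probe sets of each gene gave -0.50.

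Col5a1 over Col5a2 was -1.71, -2.17 and -2.17 in sham and -0.64, -1.39 and -1.11 in TAC, a shift of 0.97 with no overlap (exact p = 0.1, adjusted p = 0.233). It was 0.07 with probe sets averaged, so it rests on the choice of probe set. Col3a1 over its neighbour Col5a2 was 2.65, 2.20 and 2.34 in sham and 0.94, 1.39 and 1.47 in TAC, a shift of -1.13 with no overlap (exact p = 0.1, adjusted p = 0.233). It was -1.14 with probe sets averaged, and Col3a1 alone differed by -1.67. The probe sets of Col5a2 differ in sign, so the size of this shift is tied to the probe sets used. Col1a1 over Col1a2 shifted by 1.13 (exact p = 0.2, adjusted p = 0.280), from -1.68, -1.91 and -2.58 in sham to 0.49, -1.74 and -1.54 in TAC. TAC 1 stands far above the others there, and without it the shift was 0.42. Col4a1 over Col4a2 shifted by -0.77 (exact p = 0.2, adjusted p = 0.280), from 3.74, 2.61 and 2.79 to 2.63, 2.30 and 1.91, and by -0.42 without sham 1. The pairs Col4a3 over Col4a4 (-0.15) and Col6a1 over Col6a3 (0.56) had exact p-values of 0.9 and 0.6.

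**Figure D4:**
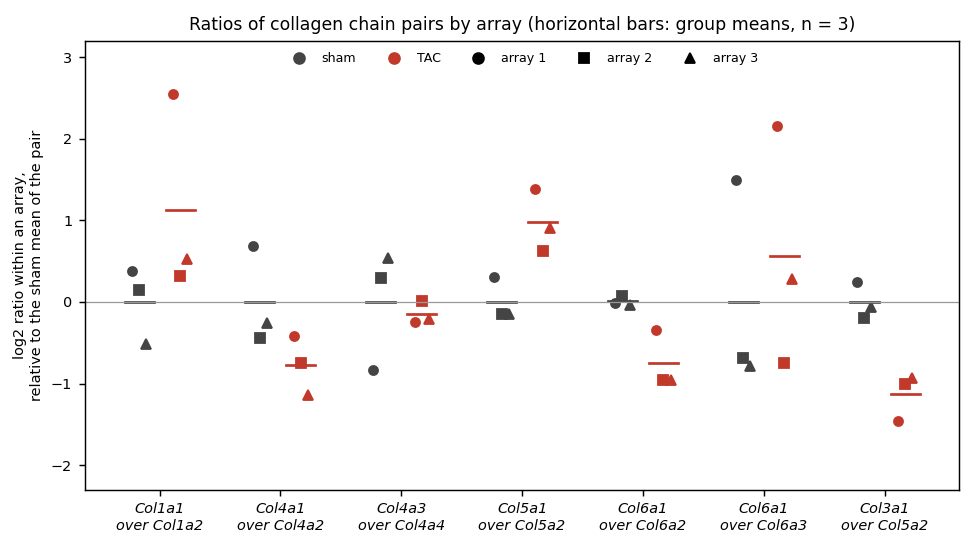
Log2 ratio of 7 pairs of collagen chain genes within each array, shown relative to the sham mean of the pair. Points are arrays (circle 1, square 2, triangle 3), grey sham and red TAC, and horizontal bars are group means, n = 3. Sham and TAC do not overlap for Col5a1 over Col5a2, Col6a1 over Col6a2 and Col3a1 over Col5a2.

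Genes that make, join, bind and break down collagen did not pass the threshold either. In the list of collagen modification and folding, 7 of 17 tested genes were higher and 10 lower (median -0.08), with 0 past the threshold. Serpinh1, the collagen-specific chaperone Hsp47, measured 8.64 ± 0.39 in sham and 7.59 ± 0.51 in TAC (-1.05 ± 0.36 SE, adjusted p = 0.627), without overlap. Ppib, a proline isomerase of the folding complex, differed by 0.55 ± 0.26. In procollagen processing and cross-linking, 6 of 8 were higher and 2 lower (median 0.34, 0 past the threshold). Tgm2, a transglutaminase that cross-links matrix proteins, measured 11.04 ± 0.09 in sham and 11.99 ± 0.21 in TAC (0.95 ± 0.23 SE, adjusted p = 0.465), also without overlap. The protease gene Furin differed by 0.66 ± 0.37. The probe sets of Serpinh1, Ppib and Tgm2, and of Ddr1, Gsn, Scarb1, Mbp and C1qb below, carry the suffix (x). Their probes may bind other transcripts, and Aspn and Notch3 below were read by probe sets with the suffix (s).

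Of 8 tested collagen receptor genes 4 were higher and 4 lower, with Ddr1, a collagen-binding receptor kinase, at 0.40 ± 0.25 and Itgb1, the common integrin chain, at -0.51 ± 0.49. In collagen breakdown 3 of 6 were higher and 3 lower, with the gelatinase Mmp2 at 0.68 ± 0.37 and the membrane protease Mmp14 at -0.38 ± 0.23. Of 13 tested regulators of collagen genes, among them the TGF-β pathway, 7 were higher and 6 lower, and the smallest adjusted p was 0.946. Cbx5, a heterochromatin protein, differed by -0.59 ± 0.50 and Ski, a repressor of Smad signalling, by 0.35 ± 0.35. These 3 lists each had 0 members past the threshold.

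In the list of fibril-associated proteoglycans and proteins 13 of 14 tested genes were lower and 1 higher after TAC (median -0.37), with 0 past the threshold. Of all tested genes 41.3% were lower. Another 6 genes of this list, Fn1 and Comp included, stayed below the filter level on every array. Postn, Ecm1 and Fbln2 were within 0.08 of 0, and Prelp, Fmod, Tgfbi and Ogn were lower by less than their SE. Dpt, which encodes dermatopontin, differed by -1.11 ± 0.31 (adjusted p = 0.527) and Aspn, which encodes asporin, by -0.85 ± 0.32 (adjusted p = 0.688), both without overlap. Dcn, which encodes decorin, read 8.71, 10.90 and 10.61 in sham and 5.93, 8.93 and 8.22 in TAC, with arrays numbered 1, those with the largest Gapdh measure of their group, far below the rest. The part of RNA quality in these readings was not tested. Among partners of type IV collagen in basement membranes 7 of 9 were lower and 2 higher (median -0.47, 0 past the threshold). Agrn, which encodes the proteoglycan agrin, was the higher one with the smallest p, at 7.67 ± 0.28 in sham and 8.42 ± 0.22 in TAC (0.75 ± 0.26 SE, adjusted p = 0.627). Lama4, the laminin chain of vessel walls, differed by -0.47 ± 0.26.

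Markers of the cells that make collagen, without the collagens themselves, were read beside these genes. Of 15 fibroblast markers on the array 7 were tested, 3 higher and 4 lower (median -0.03, mean -0.68), with Dpt and Dcn (-2.38 ± 0.94) having the smallest p. The tested markers Dpt, Dcn and Lum are also in the list of fibril-associated proteoglycans and proteins. The summed linear intensity of the whole fibroblast list, to which the actin-binding gelsolin gene Gsn (-0.03 ± 0.30) and the dipeptidase gene Dpep1 (0.12 ± 0.39) give most, ran from 7220 to 12600 over the sham arrays and from 6720 to 11600 over the TAC arrays, and 7 of the 15, Fbln1 and Pi16 included, stayed below the filter level on every array. Smooth muscle and pericyte markers were higher in 3 and lower in 5 of 8 tested, with sums of 3790 to 6360 in sham and 3470 to 4610 in TAC, Pdgfrb at 0.81 ± 0.22 and Notch3 at 1.24 ± 0.38, both higher without overlap. Notch3 read 3.74, 3.21 and 3.2 in sham, below the filter level, and 4.01, 4.61 and 5.25 in TAC. It passed the filter only through the TAC arrays, so its reading is no support for a higher level. The pericyte marker Rgs5, at -0.92 ± 0.39, was lower without overlap. The defining markers Myh11 and Des were below the filter level throughout. Endothelial markers were higher in 4 and lower in 4 of 8, with sums of 913 to 1170 in sham and 918 to 1440 in TAC, Eng at 0.72 ± 0.38 and Tek at -1.17 ± 0.65. Pecam1, Cdh5 and Kdr, which define endothelium, were below the filter level on every array. The part of these cells in the collagen readings was not tested.

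In every marker list 0 members passed the threshold, and no test was run on a list as a whole. Adrenal cortex markers were higher in 3 and lower in 5 of 8 tested, with a median of -0.58, Fdx1 at 0.71 ± 0.62 and Scarb1 at 0.87 ± 0.82. The steroidogenic genes Hsd3b1 and Star read -1.30 ± 1.29 and -1.01 ± 1.25, and the sum of the list ran from 1660 to 16800 over the sham arrays and from 2650 to 9360 over the TAC arrays. Sham 3 was the highest sham array for every tested cortex marker. The steroidogenic gene Cyp11a1 read 4.36, 4.55 and 11.1 in sham and 7.38, 6.97 and 3.22 in TAC. The part of cortex tissue in the collagen readings was not tested. Sustentacular and Schwann cell markers were higher in 6 and lower in 3 of 9, with Sox10 at 0.77 ± 0.24, L1cam at 0.81 ± 0.27 and the myelin gene Mbp at 0.80 ± 0.32, these 3 without overlap. The lower ones were the myelin gene Pmp22 at -0.63 ± 0.33, S100b at -0.21 ± 0.35 and Cdh19 at -0.14 ± 0.45, all with overlap. Macrophage markers were higher in 4 and lower in 7 of 11, with a median of -0.36, Csf1r at 1.01 ± 0.25 and C1qb at 0.69 ± 0.35, while Lyz2 read -1.03 ± 0.74, Fcgr3 -0.90 ± 0.66 and Cx3cr1, without overlap, -0.36 ± 0.23. Rgs5, Hsd3b1, Star, Cyp11a1, Mbp, Pmp22, S100b, Cdh19, Lyz2, Fcgr3, Cx3cr1, Gsn and Dpep1 were named after their values were seen. The same holds for Postn, Ecm1, Fbln2, Prelp, Fmod, Tgfbi and Ogn. Chromaffin cell markers were higher in 7 and lower in 6 of 13, with Hand2 at 0.74 ± 0.24 and Slc18a2 at -0.69 ± 0.33. Of the adipocyte markers only Fabp4 was tested (-0.11 ± 0.53), and the defining Adipoq was below the filter level.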

How the data were processed

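RNA of each animal was amplified and hybridised to an Affymetrix mouse 3′ expression array, per the labels' protocols. The authors deposited linear intensity values made with GCRMA, per the submitters' processing notes (its version: not given in the sources used here). From these, log2 values were taken. Of 45101 probe sets 64 were array controls, and 34945 others had 1 gene symbol, 932 several and 9160 none in GEO's platform annotation. All 42 collagen symbols matched RefSeq by Entrez identifier and 0 differed. Coordinates belong to the RefSeq promoter windows alone, in their build.

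A probe set entered the test if 3 or more of the 6 arrays reached log2 4. Testing used limma 3.58.1 under R 4.3.3, by lmFit and then eBayes, on group alone and 2-sided. Where a gene had several, the tested one with the highest mean stood for it. The procedure was run on simulated data with independent noise at each probe set, to check that planted differences were returned on average. Deviations shared between arrays, as seen in these data, were not simulated. The number of arrays limits the precision, with a median SE of 0.39.

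Values on every array are given for all tested fibrillar, basement membrane and beaded-filament genes and the 6 brightest others, and from each list the members with the smallest p. Members, lists and chain pairs were chosen with earlier results of these data known.

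The p-values measure the spread between animals. Alternatives covered the filter, scaling, variance model, RNA integrity, replicate number and arrays left out.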

Additional observations from a re-analysis of the deposited data

How the results depend on the processing

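No collagen probe set passed the threshold under any alternative but array weights, where 13 of 35 did and 6698 of all 18188, a similar share. There 19 collagen probe sets had an unadjusted p under 0.05 (54.3%, against 48.1% of all tested). That unadjusted count, 4 in the report, ran from 2 to 5 when single arrays were left out. Same-numbered arrays deviated together for numbers 1 and 2 (correlations 0.76 and 0.78 across probe sets) and not for number 3 (-0.22), so the numbers were not taken as pairs. Sham 3 and TAC 2, which differ in number, also deviated together (0.71). With the replicate number as a block the unadjusted count was 10 (28.6%, against 16.5% of all tested) and 0 passed the threshold. Of 26 genes, 12 kept their direction under every alternative, Col1a2, Col3a1, Col4a1, Col5a3 and Col6a2 among them. This count is no measure of support, and it was not made over all tested genes. Changes of the filter, of the variance model and the replicate block leave a gene's difference as it was, and the other alternatives use the same arrays. Col5a1, whose probe sets differ in sign, is also among the 12. Col5a2 turned to 0.05 with probe sets averaged and to 0.07 on sham 1, TAC 1 and TAC 3 alone, and on the other 3 arrays alone Col4a5 turned to 0.64 and Col13a1 to -0.11. Of the other genes that changed sign, whose differences were within their SE, Col12a1 went furthest, to 1.33 on sham 1, TAC 1 and TAC 3 alone, where Col6a3 was at 0.63 and Col8a1 at 0.48, and Col16a1 was at 0.42 with array weights. The cause was not tested. The 7 collagen probe sets without overlap (20%, against 13% of all tested) became 16 without sham 1 (45.7% against 36.6%), 12 without TAC 1 (34.3% against 25.2%), 12 without TAC 2 (34.3% against 21.9%) and 22 without both arrays numbered 1 (62.9% against 48.9%), so the share over all tested probe sets went up too. The fibrillar median, 0.08, was -0.54 when probe sets with a mean under log2 6 were dropped, which left fewer genes. On sham 1, TAC 1 and TAC 3 alone the basement membrane median was -0.65, that of beaded filaments 0.63 and that of the other types 0.53, where the median of all tested probe sets was 0.22. These medians rest on a single sham array. Leaving out both arrays numbered 1 was chosen after seeing the data. Below log2 4 readings lie near the floor, where sham 1 was the highest array at 39 of the 42 collagen probe sets that never reached that level.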
